A study of Mus musculus with 10 samples.

Results

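Wnt signalling in the heart was followed through 43 genes, out of 37325 gene names on the array: 8 ligands and R-spondins, 9 receptors and co-receptors, 10 antagonists, 6 genes of core transduction and transcription, and 10 feedback regulators and target genes. Every non-control probe carrying one of these names was taken, 74 probes in all, and Wisp1 and Wisp2 are the older names of Ccn4 and Ccn5. Cardiac tissue of male C57BL/6 mice was profiled on 1-colour arrays, and the labels assign 5 samples to HIPK2 knockout and 5 to wild type. HIPK2-/- animals carry a CRISPR deletion of 56 bases in the second exon of Hipk2, a frameshift bred on from founders by crosses with wild-type C57BL/6 animals, so the deletion is constitutive and not limited to heart muscle cells. Both genotypes shared a 12 h light and dark cycle and unrestricted chow and water. The labels give neither age nor the part of the heart, and they do not say that each replicate was a separate mouse, so the p-values reflect how these samples scatter, which may be technical.

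Wnt proteins are secreted lipid-modified ligands that bind Frizzled receptors, and with the co-receptors Lrp5 and Lrp6 they stop the degradation of beta-catenin, which then acts with TCF and LEF factors on target genes. Other ligands, Wnt5a and Wnt11 among them, act mainly through routes that do not need beta-catenin. Many secreted antagonists bind the ligands or the co-receptors, and several targets, such as Axin2, Nkd1, Notum and Znrf3, feed back on the pathway. In the adult heart the pathway is known to be largely quiet and to be engaged after injury, and Wnt11 and Wnt2 act in heart development. HIPK2 is a nuclear kinase known to phosphorylate transcriptional regulators, beta-catenin and TCF/LEF factors among them.

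The probes on which the results turn read short stretches of the transcripts, and the opening 30 of their 60 bases, 5′ to 3′ as the array files list them, are shown for 3 genes. Shisa3 is shown because its probe carries the change that passed the test, and Frzb and Lrp5 because their probes gave different answers. No base is in capitals, since no motif was marked. The positions are on mm9, and the array files list the Frzb and Lrp5 probes with descending coordinates.
Shisa3, chr5:68005102-68005161: catatactcatgtacttggcgacacaaaaa
Frzb, the probe used in the test across genes, chr2:80252127-80252186: gtagtagtaggtccagattcctaagttaca
Frzb, the other probe, chr2:80252582-80252641: gtgcaccagggtgttatttaacagaggtat
Lrp5, the probe used in the test across genes, chr19:3584971-3585030: acctcggccgtccacccggccctgctgcct
Lrp5, the other probe, chr19:3621681-3621740: ccgatgttctcttctgactttcttcagcat

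Array signal and several marker scores differed between the genotypes. The 75th percentile of spot signal was 285.8 to 460.5 on knockout arrays and 462.1 to 542.3 on wild-type arrays (two-sided exact permutation test, p = 0.00794, the lowest possible with these group sizes, and 0.0317 after Benjamini-Hochberg adjustment over 12 array measures). Wild-type replicates 1 and 2 were on slide 1 and the other 8 arrays on slide 2, where wild-type replicates 3 to 5 and knockout replicate 1 shared column 1 and knockout replicates 2 to 5 filled column 2. Column and genotype therefore nearly coincided on slide 2, and fits on slide 2 alone do not separate them. All 6 heart muscle markers were well measured, and their score, the mean log2 signal relative to each array's 75th percentile, was 8.03 to 8.43 in knockout and 7.61 to 8.04 in wild type (exact permutation p = 0.0159, adjusted 0.0381). Of these markers 5 had a fold change above 0 and Ryr2 had -0.01, and none passed the test across genes. The score of the 6 endothelial markers was 2.10 to 2.37 in knockout and 2.48 to 2.58 in wild type (exact permutation p = 0.00794, adjusted 0.0317), and of these Kdr and Emcn fell in the test across genes. All 9 macrophage markers had a fold change below 0, and their score was 1.43 to 1.97 in knockout and 1.94 to 2.21 in wild type (exact permutation p = 0.0159, adjusted 0.0381). The fat score was -5.04 to -2.96 and -4.17 to 0.29 (exact permutation p = 0.0397, adjusted 0.0680). The atrial score ran from -2.75 to 1.56 in knockout and from -3.02 to 4.81 in wild type, and the score of the 6 fibroblast markers from 2.17 to 3.03 and from 2.63 to 2.91. Of the 6 epicardial and mesothelial markers, 4 were not kept, and the score of the other 2 was -0.99 to -0.72 in knockout and -0.50 to 0.19 in wild type (exact permutation p = 0.00794, adjusted 0.0317). Signal of the brightest Hipk2 probe, which is not shown to lie in the deleted part, was 1.58 ± 0.25 for knockout against 1.54 ± 0.31 for wild type (SD, n = 5 each), so it does not check the labels. In bulk tissue, fewer cells of a type and less RNA per cell cannot be told apart.

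Of the 43 genes, 37 were measured well enough to be tested, which means that in at least 1 genotype a probe stood well above background on 4 or 5 arrays. Among them 1 rose in knockout hearts, Shisa3, and none fell (limma, adjusted p under 0.05). This is 2.70% of those tested, against 4.94% of the 20607 genes tested (1.97% higher and 2.97% lower in knockout). At an unadjusted p under 0.05 there were 8, beside 27.2% of all genes. Fold changes were above 0 for 15 and below 0 for 22, beside 11157 and 9450 of all genes. All 37 met the background filter in wild type, and Wnt2, Wnt9b, Fzd5, Sfrp4, Shisa2, Apc and Axin2 in wild type alone. For those the filter favours a fold change below 0, and Shisa2 alone among them was above 0. The median log2 fold change, knockout minus wild type, was -0.08 beside 0.03 over all genes. With normexp background correction these medians were both 0.08, and on slide 2 alone they were -0.02 and 0.02. With genes well above background on all arrays, 28 of the set, they were -0.01 and 0.04. With single arrays left out the median of the set ran from -0.13 to -0.03. Knockout and wild-type arrays were fully separated for 2 genes, Shisa3 and Fzd4, both higher in knockout, as they were for 8.98% of all genes (4.54% with knockout higher). By role, the median log2 fold change was -0.12 for ligands and R-spondins, -0.02 for receptors, 0.20 for antagonists, -0.09 for core genes and -0.20 for feedback regulators and targets. Each of these role medians changed sign in at least 1 other setting. With normexp it was 0.04 for ligands and R-spondins, 0.12 for receptors and 0.02 for feedback regulators and targets, and on slide 2 alone it was 0.05 for core genes. The antagonist median was -0.0051 without knockout replicate 5, 0.03 without wild-type replicate 3, 0.34 on slide 2 alone and 0.68 with the fibroblast score as a covariate. With single arrays left out the receptor median ran from -0.06 to 0.01, and the ligand median was -0.04 without wild-type replicate 1. The plot of fold changes by role sets the 5 classes side by side.

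**Figure D1:**
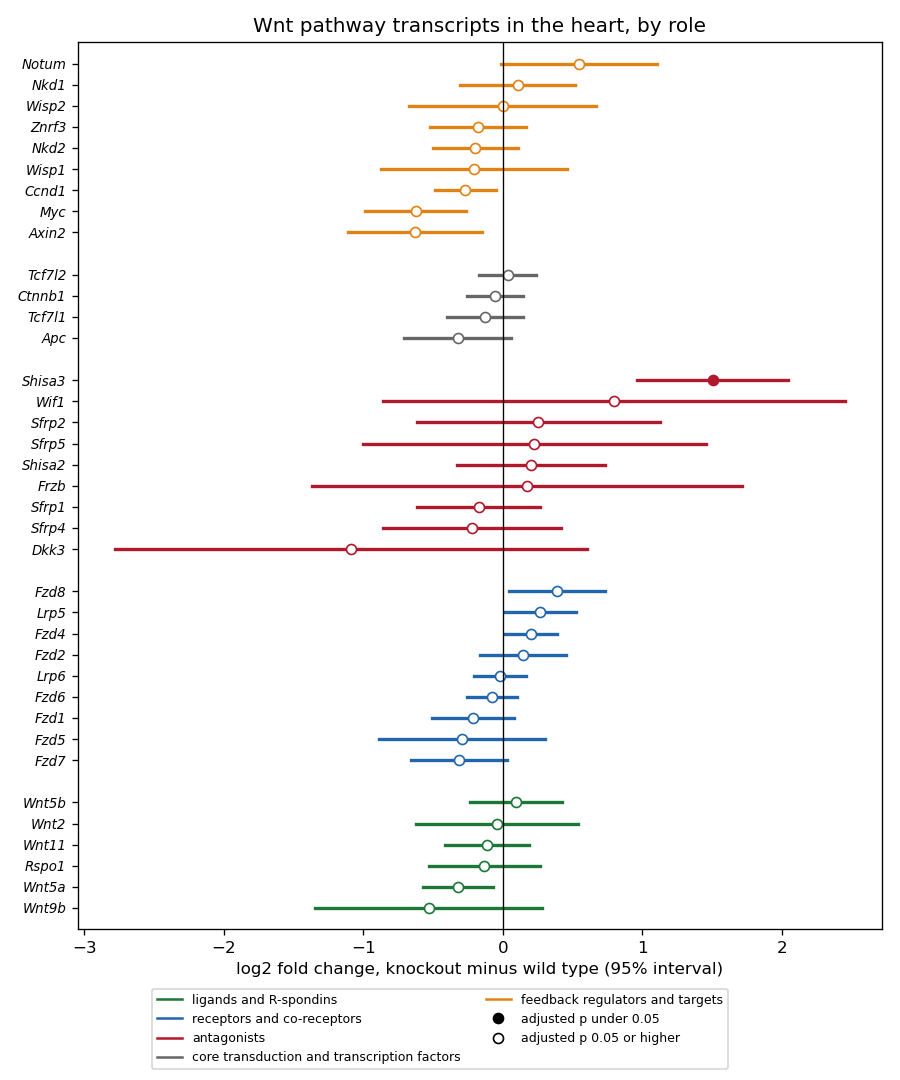
Log2 fold change of each of the 37 tested genes, knockout minus wild type (horizontal axis), with its 95% interval as a line, grouped by role. Shisa3, the filled point at 1.50, is the gene past an adjusted p of 0.05. The widest intervals belong to the antagonists Dkk3, Wif1, Frzb and Sfrp5, and that of Frzb is of a probe with a lone high value on knockout replicate 3.

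Ligands and R-spondins gave no call in either direction among the 6 tested. Of the 6, 5 had a fold change below 0, beside 9450 of all 20607 genes. Wnt2 and Wnt9b are among the 5 and met the background filter in wild type alone. Wnt5a, a ligand that acts mainly without beta-catenin (chr14:29336664-29336723), read -0.51, -0.27, -0.51, -0.33 and -0.42 in knockout replicates 1 to 5 and 0.25, -0.09, -0.07, -0.36 and -0.19 in wild-type replicates 1 to 5, as log2 signal relative to the array's 75th percentile, the scale of all levels given here. The knockout values lay at the low end and the groups overlapped at wild-type replicate 4. The difference was -0.32 ± 0.11 (SE), a 1.25-fold lower level (limma adjusted p = 0.112), and a second Wnt5a probe gave -0.41 ± 0.20. On that second probe wild-type replicates 1 and 2, those of slide 1, read -1.13 and -1.62. Wild-type replicates 3 to 5 read -2.18, -2.14 and -2.04 there, and the knockout arrays -2.63 to -2.05. On the probe used in the test across genes the difference was -0.21 with normexp and -0.20 on slide 2 alone.

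Wnt9b, a ligand with known roles in the embryonic kidney and heart valve (chr11:103588882-103588941), read -3.16, -3.86, -3.64, -3.09 and -1.79 in knockout and -2.57, -2.16, -3.42, -2.26 and -2.49 in wild type. Knockout replicate 5 was the highest of the 10 arrays while the other 4 knockout values lay among or below the wild-type ones, and 3 of 5 knockout arrays were well above background. Its difference was -0.53 ± 0.37 (limma adjusted p = 0.373). It was -0.0046 with normexp, -0.21 and -0.22 with the atrial and fibroblast scores as covariates, -0.86 without knockout replicate 5 and -0.34 without knockout replicate 2. Wnt5b, the ligand with the highest mean signal (chr6:119382550-119382609), had means of -0.10 ± 0.18 for knockout and -0.20 ± 0.30 for wild type (SD, n = 5), a difference of 0.10 ± 0.15 with a 95% interval from -0.23 to 0.43. Wnt11 and Wnt2, ligands of the developing heart, had differences of -0.11 ± 0.14 and -0.04 ± 0.26, and Rspo1, which strengthens Wnt signals at the cell surface, of -0.13 ± 0.18. Wnt2b and Rspo3 were not kept: the Wnt2b probe was not well above background on any array, and the better Rspo3 probe was so on 1 array of each genotype.

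Receptors and co-receptors were all measured, and none of the 9 passed the test. Fzd4, a Frizzled receptor known from the vasculature (chr7:96557478-96557537), read 2.41, 2.32, 2.24, 2.25 and 2.36 in knockout and 2.20, 1.90, 2.09, 2.16 and 2.21 in wild type. Every knockout value was above every wild-type value, though the lowest knockout value, 2.24, was close to the highest wild-type value, 2.21. The difference was 0.20 ± 0.08, or 1.15-fold (limma adjusted p = 0.153), and the other Fzd4 probe gave 0.21 ± 0.08 (limma adjusted p over all probes = 0.116). With normexp the difference was 0.13. Endothelial markers moved the other way over the same arrays, as given above, and their part in the Fzd4 values was not tested.

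Fzd8, another Frizzled receptor (chr18:9214916-9214975), read -1.47, -0.93, -1.44, -1.90 and -1.49 in knockout and -1.80, -1.70, -1.91, -1.73 and -2.04 in wild type. Of the knockout arrays 4 were above all wild-type arrays, and replicate 4 lay among them. The difference was 0.39 ± 0.15 (limma adjusted p = 0.140), and with normexp background correction it was 0.38 (limma adjusted p = 0.0344). Under that correction 3111 of all 20607 genes passed, 2233 of them higher in knockout. The co-receptor Lrp6 differed by -0.02 ± 0.08, with a 95% interval of -0.21 to 0.16. The other receptors, Fzd1, Fzd2, Fzd5, Fzd6 and Fzd7, had differences of -0.31 to 0.15.

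The co-receptor Lrp5 depended on the probe. On the probe used in the test across genes it read 0.83, 1.06, 1.38, 1.06 and 0.98 in knockout and 0.69, 0.59, 0.86, 0.82 and 1.00 in wild type. Knockout replicate 3 was the highest array, and the groups overlapped. The difference was 0.27 ± 0.12 (limma adjusted p = 0.164), and 0.17 on slide 2 alone. The second probe, 36710 bases away and listed for a cDNA clone in place of the RefSeq transcript, gave -0.51 ± 0.23 (limma adjusted p over all probes = 0.192). The difference between the probes had a two-sided exact permutation p of 0.0238, and 0.429 after Benjamini-Hochberg adjustment over the 18 probe pairs compared, so the direction for Lrp5 was not settled.

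Antagonists held the change that passed the test. Shisa3 is a membrane protein of the shisa family, which is known to hold back Frizzled and fibroblast growth factor receptors inside the cell. Its signal was -1.80, -1.71, -1.59, -1.38 and -1.64 in knockout and -2.50, -2.63, -3.96, -3.13 and -3.42 in wild type, with all 10 arrays well above background. The knockout values lay close together, SD 0.16, and above every wild-type value, whose SD was 0.59. Within wild type, the arrays of slide 1, replicates 1 and 2, were the highest. The difference was 1.50 ± 0.24, a 2.84-fold higher level (limma adjusted p = 0.0135), and on slide 2 alone it was 1.88 (limma adjusted p = 0.0076). It passed without each of the 10 arrays in turn, at 1.30 to 1.66 (limma adjusted p = 0.0129 to 0.0418). With the atrial score as a covariate the difference was 1.41 and no longer passed (limma adjusted p = 0.0728). Over the 10 arrays Shisa3 and the atrial score had r = -0.53 (permutation p = 0.115), rho = -0.52 (permutation p = 0.136), and r = -0.19 after each genotype's mean was removed. Without the 2 arrays of extreme atrial score r was -0.63, and on the 8 arrays of slide 2 it was -0.69. Adjusted over the 74 relations computed, the p-values were 0.501 and 0.415.

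**Figure D2:**
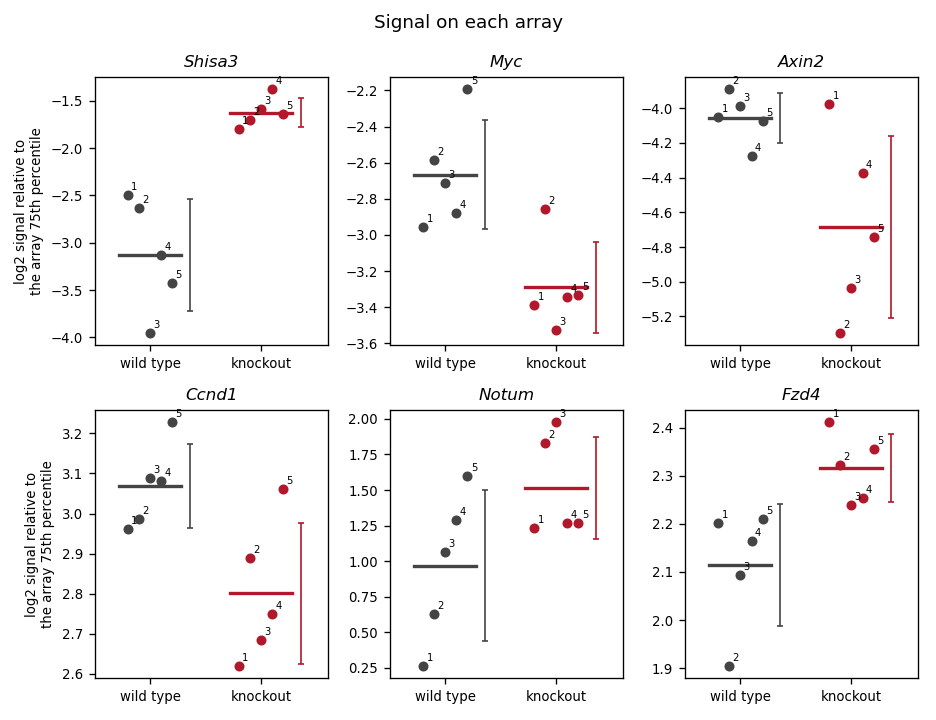
Log2 signal relative to the array's 75th percentile (vertical axes) on each of the 5 wild-type and 5 knockout arrays, numbered by replicate, for Shisa3, Myc, Axin2, Ccnd1, Notum and Fzd4; horizontal lines are means and bars at the side are SD. Shisa3 and Fzd4 have all knockout points above all wild-type points, and the groups of the other 4 genes overlap.

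For each of the other 8 antagonists tested, the SD within genotype exceeded the difference between genotypes on the probe used in the test across genes. This SD, pooled over both genotypes, was 1.41 for Dkk3, 1.38 for Wif1, 1.28 for Frzb and 1.02 for Sfrp5. These 4 of the 37 genes, all antagonists, were above 0.8, a level set after the values were seen. Of all genes tested, 1.96% were above it. The SDs given are those of the probe used in the test. For Frzb that probe read 1.10 on knockout replicate 3 and -3.05 to -1.50 on the other knockout arrays. Its other probe, described below, read -2.77 to -1.23 over the knockout arrays. The median SD was 0.715 for antagonists, 0.326 for feedback regulators and targets, 0.281 for ligands and R-spondins, 0.215 for receptors, 0.160 for core genes and 0.208 for all genes tested.

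Dkk3, a secreted glycoprotein of the Dickkopf family (chr7:119259556-119259615), read -2.14, -1.40, -1.54, -1.82 and 1.53 in knockout and -1.57, 1.57, -1.11, 0.36 and 0.83 in wild type. Knockout replicate 5 stood with the highest wild-type arrays and the other 4 knockout arrays with the lowest. The difference was -1.09 ± 0.77, the 95% interval being -2.78 to 0.60 (limma adjusted p = 0.380). It was -1.74 without knockout replicate 5 and -0.70 without wild-type replicate 2. A second Dkk3 probe gave -1.29 ± 0.75 and followed the same arrays, r = 0.988 over 10 arrays. Its signal ran with the tissue scores: with the fibroblast score r was 0.84 (permutation p = 0.00133, adjusted over 74 relations 0.0984) and rho 0.89 (permutation p = 0.0012, adjusted 0.0888). Without the 2 arrays of extreme fibroblast score r was 0.94, within genotypes it was 0.81, and on the 8 arrays of slide 2 it was 0.88. With the atrial score r was 0.78 (permutation p = 0.0127, adjusted 0.234) and rho 0.77 (permutation p = 0.0125, adjusted 0.275). That r was 0.81 without the 2 arrays of extreme atrial score and 0.70 on slide 2. None of the 74 relations passed the adjustment. The Dkk3 difference was 0.01 with the atrial score as a covariate and -0.06 with the fibroblast score.

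Sfrp1 and Sfrp2, secreted Frizzled-related proteins that bind Wnt ligands, were highest on the array with the highest fibroblast score, knockout replicate 5. Sfrp2 read -2.75, -1.76, -2.72, -3.22 and -0.81 in knockout and -2.28, -2.48, -2.90, -2.70 and -2.17 in wild type. The knockout arrays spread on both sides of the wild-type ones, and the difference was 0.25 ± 0.39 (limma adjusted p = 0.708). Leaving out knockout replicate 5 gave -0.11, replicate 2 gave 0.13 and replicate 4 gave 0.50, leaving out wild-type replicate 3 gave 0.16, and the difference was 0.83 with the fibroblast score as a covariate. Its r with the fibroblast score was 0.70 (permutation p = 0.0268, adjusted 0.374), rho 0.78 (permutation p = 0.0102, adjusted 0.275), 0.66 as r without the 2 arrays of extreme score and 0.75 on slide 2. Sfrp1 differed by -0.17 ± 0.20, with r = 0.84 (permutation p = 0.0028, adjusted 0.104) and rho = 0.66 (permutation p = 0.044, adjusted 0.323). The Sfrp1 relation fell to r = 0.51 without knockout replicates 1 and 4, and was 0.89 on slide 2.

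**Figure D3:**
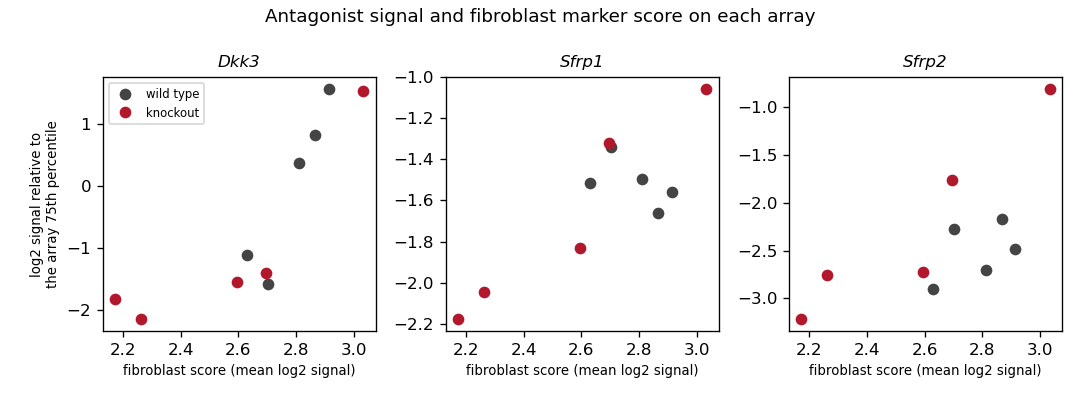
Log2 signal of Dkk3, Sfrp1 and Sfrp2 (vertical axes) against the fibroblast score, the mean log2 signal of 6 fibroblast markers (horizontal axis), with 1 point per array. Knockout replicates 1 and 4 have the lowest scores and knockout replicate 5 the highest, and no relation passed adjustment over 74 relations.

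Wif1, a secreted protein that binds Wnt ligands (chr10:120537079-120537138), read -0.42, 0.26, -2.04, -2.16 and 0.95 in knockout and -0.25, 0.00, -3.26, -2.24 and -1.65 in wild type. In each genotype some arrays were high and others low, and the difference was 0.80 ± 0.75 (limma adjusted p = 0.518). It was 1.70 on slide 2 alone, 1.53 with the fibroblast score as a covariate, 0.39 without knockout replicate 5 and 0.35 without wild-type replicate 3. Sfrp5, another secreted Frizzled-related protein, read -1.01, 0.48, -1.91, -0.97 and 0.30 in knockout and -0.59, 0.81, -1.88, -1.34 and -1.22 in wild type. Its difference was 0.23 ± 0.56, and it was 0.86 on slide 2 alone and -0.05 to 0.64 with single arrays left out. Sfrp5 and Wif1 were high and low on the same arrays, with r = 0.86 (permutation p = 0.00119) and rho = 0.82 (permutation p = 0.00592). Over the 36 pairs of antagonists these p-values were 0.0428 and 0.135 after Benjamini-Hochberg adjustment, and the r of Sfrp5 with Wif1 was the single r to pass. It was 0.89 without the 2 arrays of extreme Sfrp5 signal, 0.87 within genotypes and 0.89 on the 8 arrays of slide 2. The atrial score had r of -0.04 with Sfrp5 and -0.30 with Wif1. For the fibroblast score r was 0.41 with Sfrp5 and 0.36 with Wif1. Those were 0.60 and 0.58 without knockout replicates 1 and 4, 0.52 and 0.59 within genotypes, and 0.29 and 0.29 on slide 2. None of these relations passed adjustment over the 74 computed.

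**Figure D4:**
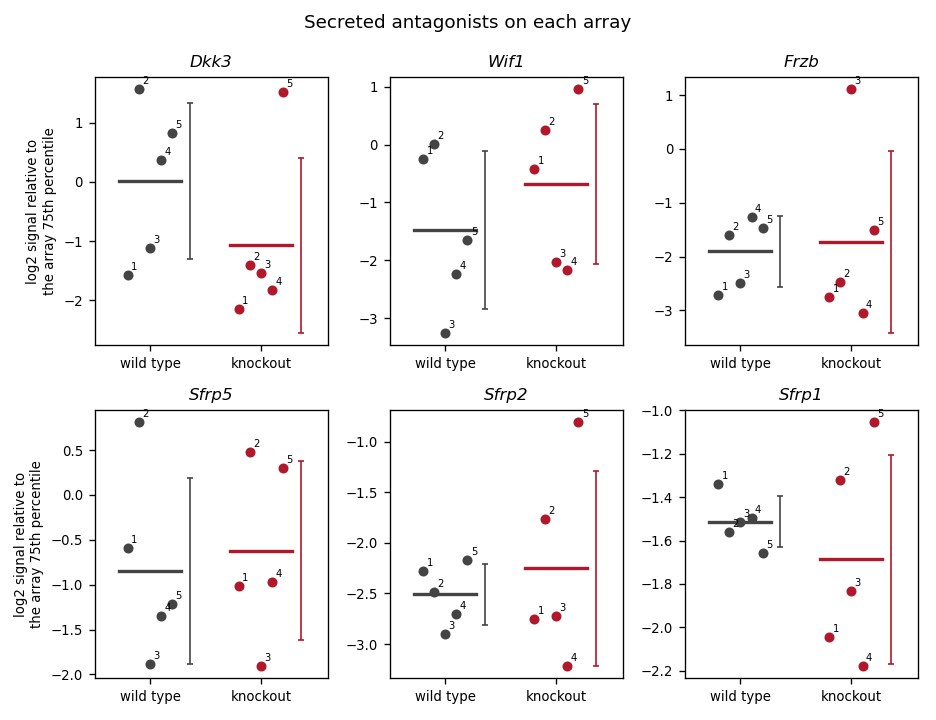
Log2 signal relative to the array's 75th percentile (vertical axes) on each of the 5 wild-type and 5 knockout arrays, numbered by replicate, for 6 secreted antagonists; horizontal lines are means and bars at the side are SD. Points of both genotypes overlap for all 6, knockout replicate 5 is high for Dkk3, Wif1, Sfrp2 and Sfrp1, and knockout replicate 3 stands alone for Frzb.

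Frzb, also known as Sfrp3, depended on a single array of 1 probe. The probe used in the test read -2.75, -2.47, 1.10, -3.05 and -1.50 in knockout and -2.71, -1.59, -2.49, -1.26 and -1.47 in wild type, a difference of 0.17 ± 0.70. The other probe, 455 bases away in the same transcript, read -2.66, -2.31, -2.36, -2.77 and -1.23 in knockout and -2.33, -1.36, -1.65, -1.03 and -1.35 in wild type, a difference of -0.72 ± 0.31 (limma adjusted p over all probes = 0.170). Knockout replicate 3 was the highest array on the former and in the lower part of the range on the latter. The probes correlated at r = 0.27 over 10 arrays and at r = 0.94 over the 9 arrays without it. Without knockout replicate 3, a choice made after seeing the data, the differences were -0.54 ± 0.38 and -0.70 ± 0.34 (limma adjusted p = 0.394 and 0.232).

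The last antagonists were dim. Sfrp4 was well above background on 2 of 5 knockout and 4 of 5 wild-type arrays and differed by -0.22 ± 0.29. Shisa2, the relative of Shisa3, was so on the same numbers of arrays and differed by 0.20 ± 0.24 (limma adjusted p = 0.610). With normexp background correction the Shisa2 difference was 0.39 (limma adjusted p = 0.0234). That correction moved dim genes upward in general, from a median of -0.06 to 0.25 over 4028 genes. It gave 3111 calls among all genes, 2233 of them higher in knockout. Dkk2, an inhibitor that binds Lrp5 and Lrp6, was not kept, being well above background on 1 wild-type array. Of the 9 antagonists tested, 6 had a fold change above 0 and 3 below.

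Core genes gave no call among the 4 tested. Ctnnb1, which encodes beta-catenin (chr9:120869274-120869333), read 3.45, 3.48, 3.24, 3.37 and 3.42 in knockout and 3.60, 3.59, 3.26, 3.40 and 3.37 in wild type. Wild-type replicates 1 and 2, those of slide 1, lay above every knockout array and knockout replicate 3 below every wild-type array, and the other values overlapped, with a difference of -0.05 ± 0.09 and a 95% interval of -0.26 to 0.15, and 2 further probes gave -0.24 ± 0.13 and -0.04 ± 0.09. Apc, a scaffold of the complex that degrades beta-catenin, differed by -0.32 ± 0.17 (limma adjusted p = 0.255), with 3 of 5 knockout arrays well above background, and it was 0.15 with normexp and -0.51 on slide 2 alone. The transcription factors Tcf7l1 and Tcf7l2 differed by -0.13 ± 0.12 and 0.03 ± 0.09, and 3 further Tcf7l2 probes gave 0.12 to 0.38. Lef1 and Tcf7, factors of the same family known from lymphocytes, were not kept, and none of their 6 probes was well above background on more than 3 arrays of a genotype.

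Feedback regulators and targets gave no call among the 9 tested, and 6 had a fold change below 0 and 3 above. Myc, a growth-promoting transcription factor and known target (chr15:61821417-61821476), read -3.39, -2.86, -3.53, -3.34 and -3.33 in knockout and -2.96, -2.59, -2.71, -2.88 and -2.19 in wild type. Of the knockout arrays 4 were below every wild-type array, and replicate 2 lay among them. The difference was -0.62 ± 0.16, a 1.54-fold lower level, just short of the threshold (limma adjusted p = 0.0539). It passed with quantile normalization (-0.69, limma adjusted p = 0.0442), in the authors' deposited value table (-0.69, limma adjusted p = 0.0438) and without knockout replicate 2 (-0.73, limma adjusted p = 0.0452). With normexp background correction it was -0.11 (limma adjusted p = 0.443).

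Axin2, the scaffold whose transcript is the usual readout of beta-catenin signalling (chr11:108811980-108812039), read -3.98, -5.30, -5.03, -4.37 and -4.74 in knockout and -4.05, -3.89, -3.99, -4.28 and -4.07 in wild type. Knockout replicate 1 lay among the wild-type arrays and the other 4 below them. The probe was well above background on all 5 wild-type arrays and on 1 knockout array. The difference was -0.63 ± 0.22 (limma adjusted p = 0.105), and it sets wild-type values against knockout values mostly near background. Without knockout replicate 1, the knockout array on which the probe was well above background, it was -0.81 (limma adjusted p = 0.0492), and that value rests on no knockout array well above background. With normexp background correction it turned to 0.17 (limma adjusted p = 0.258). The lower 75th percentile of signal and the lower share of spots above background on knockout arrays, 51.9% ± 5.36 against 58.6% ± 1.8 (SD, n = 5), go with these dim values, and their part in them was not tested.

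Ccnd1, which encodes cyclin D1 and is a known target (chr7:152116202-152116261), read 2.62, 2.89, 2.69, 2.75 and 3.06 in knockout and 2.96, 2.99, 3.09, 3.08 and 3.23 in wild type. Of the knockout arrays 4 lay below all wild-type arrays, and the groups overlapped at knockout replicate 5. The difference was -0.27 ± 0.10, or 1.20-fold lower (limma adjusted p = 0.124), and it was -0.31 with normexp background correction (limma adjusted p = 0.0525) and -0.17 with the fibroblast score as a covariate. Notum, a secreted enzyme that removes the lipid from Wnt ligands (chr11:120515209-120515268), read 1.23, 1.83, 1.98, 1.27 and 1.27 in knockout and 0.26, 0.63, 1.06, 1.29 and 1.60 in wild type. The lowest arrays were the wild-type ones of slide 1, and the difference of 0.55 ± 0.25 (limma adjusted p = 0.192) was 0.20 on slide 2 alone. Another Notum probe, for the same transcript, was far dimmer, with means of -4.80 in knockout and -4.90 in wild type. It was well above background on 3 wild-type arrays and on no knockout array, and was not kept. Nkd1 and Nkd2, inhibitors of Dishevelled, differed by 0.11 ± 0.19 and -0.20 ± 0.14. Znrf3, a ubiquitin ligase that removes Frizzled receptors, differed by -0.18 ± 0.15. Wisp1 and Wisp2, secreted matrix proteins, differed by -0.20 ± 0.30 and 0.00 ± 0.30. Rnf43, the relative of Znrf3, was not kept, and neither of its probes was well above background on any array.

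The dim genes gave other values under another background correction. Of the 37 tested, 9 were not well above background on some array (Wnt2, Wnt9b, Fzd5, Sfrp4, Shisa2, Apc, Axin2, Wisp1 and Myc). Their median fold change was -0.29 with the processed signal and 0.17 with normexp, and 5 of the 9 changed sign. For the other 28 the medians were -0.01 and 0.02, and 3 changed sign. Over all genes tested, 47.0% of 4028 such dim genes changed sign, with medians of -0.06 and 0.25, against 11.2% of the other 16579. Shisa3 kept its direction and passed under both corrections, at 1.50 and 0.95.

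**Figure D5:**
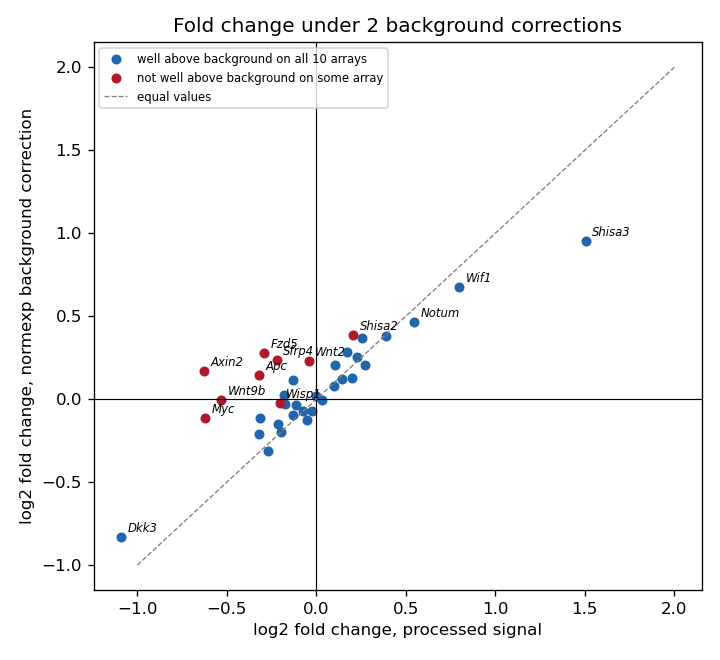
Log2 fold change, knockout minus wild type, of the 37 tested genes with the scanner's processed signal (horizontal axis) and with normexp background correction (vertical axis); red points are the 9 genes not well above background on some array and the dashed line marks equal values. Axin2 moves from -0.63 to 0.17 and Myc from -0.62 to -0.11, while Shisa3 stays at the right.

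Several probes were kept for 14 of the genes, which gave 18 pairs of the probe used in the test with another probe. Of these pairs 13 had the same sign and 5 the opposite, in Frzb, Fzd5, Lrp5, Lrp6 and Znrf3. No pair differed after adjustment over the 18 (two-sided exact permutation tests). The other 23 genes rested on 1 kept probe each, Shisa3, Myc, Axin2 and Ccnd1 among them. Over all 55 kept probes of the set, the Shisa3 probe was the one call, where 4.44% of the 30693 kept probes passed.

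A second list of 75 other pathway genes, from further ligands to planar polarity genes, held 57 that were tested, and 4 rose and 1 fell (limma adjusted p under 0.05), 8.77% beside 4.94% of all genes, with a median log2 fold change of 0.04. Lgr6, a receptor for R-spondins, read 0.46, 0.13, -0.15, 0.32 and 0.33 in knockout and -0.19, -0.53, -0.51, -0.82 and -0.74 in wild type, and rose by 0.77 ± 0.15 (limma adjusted p = 0.0211). Ctnnbip1, an inhibitor that keeps beta-catenin from TCF factors, read 2.25, 2.31, 2.23, 2.36 and 2.33 in knockout and 2.70, 2.63, 2.87, 2.59 and 2.73 in wild type, with a change of -0.41 ± 0.08 (limma adjusted p = 0.0214). Neither gene's groups overlapped, nor did those of the other called genes, Tle2, Fzd9 and Dkkl1. Of the 57 tested, 4 were fully separated with knockout higher and 3 with knockout lower. Over all genes 4.54% and 4.44% were. Tle2, a Groucho co-repressor, rose by 0.44 ± 0.10 (limma adjusted p = 0.0328), the Frizzled receptor Fzd9 by 0.67 ± 0.15 (limma adjusted p = 0.0358) and Dkkl1, a Dickkopf-like secreted protein known from the testis, by 0.77 ± 0.18 (limma adjusted p = 0.0426). When each array was left out in turn, Lgr6 and Ctnnbip1 passed in 8 of 10 fits, Fzd9 in 4, Tle2 in 2 and Dkkl1 in 1. With the atrial score as a covariate none of the 5 passed (limma adjusted p = 0.0911 to 0.113). Of the 18 genes not kept, 8 were ligands, among them Wnt3a and Wnt10b, and the inhibitors Dkk1 and Sost were not kept either.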

How the data were processed

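Per the labels' protocols, cardiac tissue was snap-frozen, and RNA was labelled with cyanine 3 and hybridised 1 sample to an array. The deposited files hold spot intensity from the scanner software Agilent Feature Extraction (version 10.7.1.1 in the submitters' processing notes), which per the file headers subtracted background within an array and did not scale arrays to each other. The authors' value table is on a log2 scale and served as an alternative, and its filtering is not given in the sources used here. The deposited files also carry the software's other marks per spot, used to drop outlier spots and to find spots well above background.

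The log2 processed signal minus each array's log2 75th percentile (59305 non-control spots, 56605 probes) was analysed. Probes well above background on at least 4 of 5 arrays of a genotype were kept (30693), each gene taking its brightest (20607 genes; 32994 probes named by RefSeq accession). limma 3.58.1 in R 4.3.3 (lmFit, eBayes, no covariates) compared genotypes, with Benjamini-Hochberg adjustment over all genes and a threshold of 0.05. Marker scores and other single values were tested by exact permutation (two-sided) over arrays, and relations by 100000 permutations. Same-numbered arrays did not deviate together. Positions are mm9; exon annotation was not used here.

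The genes and lists were chosen with earlier results of these data known. The naming rule takes genes past the threshold and, per role, the brightest and up to 2 of smallest p; the other genes given with values on every array, Lrp5, Sfrp2, Sfrp5, Frzb and Notum, were picked after their values were seen. The relations, the pairs of antagonists and the probe pairs were also chosen after seeing the data. Alternatives were normexp (offset 50), quantile normalization, the authors' table, other filters, other probe and name rules, slide, replicate block, tissue scores as covariates and leaving out each array.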

Additional observations from a re-analysis of the deposited data

Results flagged for a closer look

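Within each genotype, the highest or lowest of the 5 arrays was compared with the nearest other array, and a gap above 0.71 of the whole range marked it. Of 84 such groups, 3 were marked, and chance marks about 1 in 20. Dkk3 in knockout replicate 5 was 1.53, where the next knockout array was -1.40. Nkd1 in the same array, knockout replicate 5, was -1.86, where the next was -2.45. Shisa2 in knockout replicate 3 was -5.18, where the next was -4.29, and this probe was well above background on 2 of 5 knockout arrays.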

How the results depend on the processing

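Shisa3 kept its direction in all 12 other settings and passed in 10, failing with the atrial score as a covariate and with the replicate block. The replicate block gave 164 genes called, 0 of the Wnt genes, 0 antagonists and 0 of the second list (Shisa3 1.50, limma adjusted p = 0.052). Deviations of same-numbered arrays from their genotype means correlated at -0.106 to 0.0495. These values show no pairing by number, but they cannot exclude one, since other differences between arrays can hide it. Genes called, 1017 in all (405 up, 612 down; 39.8% up), were 3111 with normexp (2233 up, 878 down; 71.8% up), 173 without a filter (53.2% up), 458 on slide 2 alone, 57 with the atrial and 320 with the fibroblast score, 282 to 940 with an array left out, and 49.4% up among genes above background on all arrays. Wnt genes called were 3 with normexp (2 antagonists, 1 receptor), 2 with quantile normalization and with the authors' table (1 target each), 2 without a filter (1 ligand, Wnt2b, not above background on any array), 0 with the atrial score (0 antagonists), and 1 to 2 with an array left out (antagonists 1, targets 0 to 1). The second list gave 10 with normexp, 2 with slide as a block, 1 each on slide 2 alone, without a filter and with the fibroblast score, 0 with the atrial score and 0 to 5 with an array left out.

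Direction turned, in genes that did not pass in either fit, as follows. Normexp gave Wnt2 0.23, Rspo1 0.12, Fzd5 0.28, Sfrp4 0.24, Apc 0.15, Tcf7l2 -0.0045, Axin2 0.17 and Znrf3 0.024. Wisp2 was -0.0034 with quantile normalization and -0.0050 in the authors' table. The mean of all probes gave Lrp5 -0.12, Lrp6 0.029 and Frzb -0.27. Slide 2, alone or with slide as a block, gave Wnt5b -0.12, Wnt11 0.0020, Rspo1 0.087, Ctnnb1 0.047, Tcf7l1 0.044 and Nkd1 -0.022. The atrial score gave Wnt2 0.15, Dkk3 0.011, Sfrp4 0.024 and Tcf7l2 -0.047, and the fibroblast score Wnt2 0.030, Sfrp1 0.091, Sfrp4 0.058 and Tcf7l2 -0.0086. With an array left out the ranges crossed 0 for Wnt2 (-0.19 to 0.11), Rspo1 (-0.20 to 0.013), Lrp6 (-0.057 to 0.014), Sfrp2 (-0.11 to 0.50), Sfrp5 (-0.051 to 0.64), Frzb (-0.54 to 0.50), Tcf7l2 (-0.0081 to 0.084), Nkd1 (-0.026 to 0.23), Wisp1 (-0.34 to 0.0098) and Wisp2 (-0.17 to 0.21). Beyond the construction of each setting, the cause was not tested. The number of arrays limits precision, and dim probes lie near background, where the background corrections gave different values.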
